A study of Rattus norvegicus with 12 samples.

Results

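The 7 genes that encode the subunits of AMP-activated protein kinase (AMPK) and the genes of its upstream kinases Stk11 and Camkk2 were followed in the left ventricles of 12 male Sprague-Dawley rats. These 9 genes were taken by their symbols from a table of 34700 genes, and all 9 passed the filter on low counts in every fit. Their Ensembl identifiers are ENSRNOG00000012799 (Prkaa1), ENSRNOG00000007706 (Prkaa2), ENSRNOG00000001142 (Prkab1), ENSRNOG00000018166 (Prkab2), ENSRNOG00000061499 (Prkag1), ENSRNOG00000009085 (Prkag2), ENSRNOG00000017248 (Prkag3), ENSRNOG00000014287 (Stk11) and ENSRNOG00000001309 (Camkk2). In the Sham group, a thread was passed around the left anterior descending coronary artery of 8-week-old rats without tying it. In the HF, HFE and BAIBA groups the artery was ligated, which gives a myocardial infarct and heart failure, and rats were placed in groups by ejection fraction at 4 weeks. HF rats stayed sedentary. HFE rats had treadmill training (60 min daily, 5 days weekly) that lasted 8 weeks. BAIBA rats received beta-aminoisobutyric acid, a small molecule that muscle releases in exercise, by mouth through a gavage tube, with a daily dose of 75 mg/kg and the same 8 weeks of treatment. In the BAIBA studies, Sham and HF rats were given water by gavage, and the methods do not say that HFE rats were. The study's descriptions differ on whether Sham and HF rats also received BAIBA, and the labels and methods, which name it for the BAIBA group alone, were followed here. Each group had 3 rats, and hearts were taken at 12 weeks. The methods give anterior left ventricular wall as the tissue and name the infarct's surroundings for BAIBA rats only, whereas elsewhere the study places the tissue of both HF and BAIBA rats there. The site in HFE rats is given only as the anterior wall, so that site and treatment cannot be told apart in comparisons with HFE or Sham rats. On the account in the methods, the same holds for BAIBA against HF.

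AMPK senses a shortage of cellular energy. It is a trimer of a catalytic alpha subunit, a beta subunit that holds the complex together and binds glycogen, and a gamma subunit that binds AMP, ADP and ATP. Stk11 (also called LKB1) and Camkk2 switch it on by phosphorylating the alpha subunit, the latter in response to calcium. In heart, AMPK promotes glucose uptake and fatty acid oxidation during stress. RNA levels give the supply of transcripts for each subunit and carry no information on phosphorylation or kinase activity.

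With edgeR, 0 of the 9 genes passed the test in any comparison. DESeq2 called 1 gene, Prkag2, in the test over all 4 groups, where it called 333 of 24775 genes. The largest differences between groups in relation to their error were in Prkag2 and Prkag3, which encode gamma subunits and were lower in every BAIBA rat than in every HFE rat, and in Prkab1, which encodes a beta subunit and was lower in every HF rat than in every Sham or BAIBA rat. Of all genes, 11.4 to 15.5% likewise did not overlap between the groups of these comparisons, judged on scaled counts. Prkaa2, which encodes the catalytic subunit most typical of heart muscle, varied 6.39-fold between rats, with the low and the high rats spread over all groups.

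Sequencing gave between 14812541 and 19732588 counted reads per rat. Cardiomyocyte markers were abundant in every rat (7 of 7 found, none at 0), with a summed level of 21294 to 25635 FPKM (fragments per kilobase of gene length, scaled to the depth of the library). That sum was 24133 to 25635 FPKM in HFE rats, above all other rats, whose highest was 23891 FPKM. The summed macrophage markers (5 of 5 found, none at 0) were 58.3 to 62.7 FPKM in Sham, 39.996 to 71.4 FPKM in HF, 28.9 to 44.9 FPKM in HFE and 46.1 to 131 FPKM in BAIBA rats. Fibroblast and scar markers, taken as 1 list (7 of 7 found, none at 0), summed to 538 to 549 FPKM in Sham and 444 to 608 FPKM in HF rats. The sum was 376 to 576 FPKM in HFE and 552 to 753 FPKM in BAIBA rats. Dcn had the highest median of the list, 317 FPKM, and Postn the lowest, 3.36 FPKM, so the sum does not measure scar alone. Red cell markers (3 of 3 found, none at 0) summed to 689 to 1031 FPKM in Sham, 699 to 1484 FPKM in HF, 914 to 1114 FPKM in HFE and 1310.5 to 1634 FPKM in BAIBA rats. In whole tissue, fewer cells of a type and less RNA per cell cannot be told apart. The part of these markers in the results below was not tested.

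Averaged over the 12 rats, Prkab1 had the highest level per length at 32.8 FPKM, followed by Stk11 at 27.8, Prkaa2 at 12.1, Prkag2 at 10.8, Prkag1 at 10.3, Prkab2 at 8.52, Prkaa1 at 6.47, Prkag3 at 3.30 and Camkk2 at 1.94 FPKM. The upper part of this order was not fixed from rat to rat. Prkab1 exceeded Stk11 in 10 of 12 rats, and Prkaa2 exceeded Prkag2 in 7 of 12, as Prkag2 did Prkag1. Over all rats only the ranges of Prkaa1 and Prkag3, and of Prkag3 and Camkk2, did not overlap among neighbours in the order. The row labelled Prkag1 was counted over 18552 bases, which exceeds the 17427 bases that RefSeq gives the whole gene, introns included, in the GRCr8 assembly. No row carries the symbol of its neighbour Kmt2d, so the level of Prkag1 and each gamma share that uses it are uncertain.

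**Figure D1:**
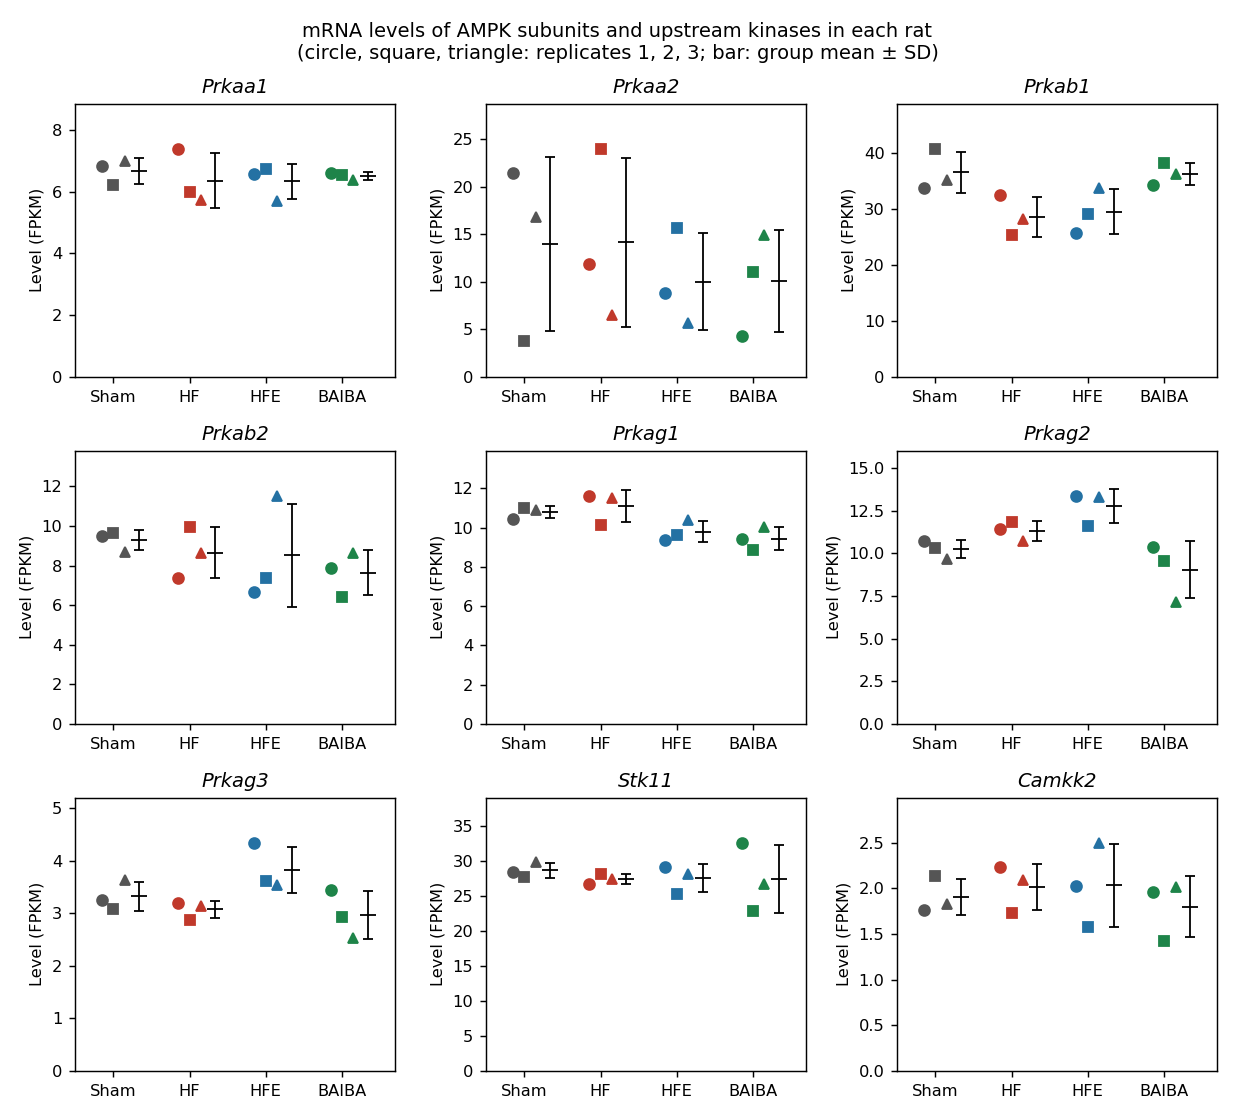
mRNA level in FPKM (vertical axes, from 0) of each gene in each rat, by group; circles, squares and triangles are replicates 1, 2 and 3, and the bar is the group mean ± SD (n = 3). Prkaa2 spans 3.74 to 23.9 FPKM with all groups overlapping, whereas Prkag2 is 11.6 to 13.4 FPKM in HFE and 7.16 to 10.4 FPKM in BAIBA rats.

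Of the catalytic subunits, Prkaa1 (alpha1), which is found in most tissues, was the steadier. Its level was 6.84, 6.20 and 6.97 FPKM in Sham rats, 7.37, 5.97 and 5.72 in HF rats, 6.57, 6.73 and 5.69 in HFE rats and 6.60, 6.54 and 6.37 FPKM in BAIBA rats. All groups overlapped. The fitted log2 differences of Prkaa1 lay between -0.059 (HF against Sham, SE 0.11) and 0.033 (HFE against HF, SE 0.11).

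Prkaa2 (alpha2) was 21.4, 3.74 and 16.8 FPKM in Sham rats, 11.9, 23.9 and 6.55 in HF rats, 8.78, 15.6 and 5.62 in HFE rats and 4.32, 11.1 and 14.9 FPKM in BAIBA rats. The lowest rat, Sham replicate 2 with 150 counts, and the next highest of all, Sham replicate 1 with 990 counts, belonged to the same group, and the groups overlapped throughout. Within groups its SD was 1.03 on the log2 CPM scale (CPM, counts scaled to a common library depth), compared with 0.11 for Prkaa1 and a median of 0.24 over 15617 genes. This spread was larger than that of 96.5% of all genes and of 99.4% of the 1000 genes nearest in level. The group means ± SD were 14.0 ± 9.15 (Sham), 14.1 ± 8.89 (HF), 10.01 ± 5.11 (HFE) and 10.1 ± 5.36 FPKM (BAIBA; n = 3 each). A log2 difference of 0.017 with an SE of 0.75 (HF against Sham), of -0.46 with an SE of 0.59 (HFE against HF), of -0.48 with an SE of 0.63 (BAIBA against HF) and of -0.029 with an SE of 0.58 (BAIBA against HFE) was fitted. Each SE exceeds the difference it belongs to, so no difference of Prkaa2 was detectable with this number of rats. Single rats decided the direction: HF against Sham ranged from -0.62 to 0.50 with 1 rat left out, the lowest without HF replicate 2 and the highest without Sham replicate 1. Without HF replicate 2, HFE against HF was 0.18 and BAIBA against HF 0.15, and without Sham replicate 2, HF against Sham was -0.43.

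Prkaa2 did not vary alone. The 5 genes whose log2 CPM followed it most closely over the 12 rats, among 12956 genes with a mean of at least 1 CPM, were Lrp6 (Pearson r = 0.98), Lmbrd2 (0.97), Myo9a (0.97), Zyg11b (0.97) and Birc6 (0.97). Lrp6 encodes a Wnt co-receptor, Myo9a an unconventional myosin and Birc6 a large inhibitor of apoptosis. In all, 81 genes had an r over 0.9 with Prkaa2, against 0 to 4 for each of the other 8 genes. Those 8 genes also spread less within groups (SD 0.095 to 0.28 on the log2 CPM scale). The part of this smaller spread in the counts of correlated genes was not tested. The points share libraries, so that anything acting on whole libraries enters each r, and the correlations are given as a description. The 100 genes most like Prkaa2 had a median counted length of 3794 bases, compared with 2401 bases for all genes and 1794 bases for the 100 most opposite. Each library's slope of log2 CPM on log2 length, a measure of how far long genes are high in that library, followed Prkaa2 with r = 0.73 (Spearman rho = 0.73), and for the other 8 genes r lay between -0.48 (Stk11) and 0.40 (Prkaa1). The slopes lay between -0.041 (BAIBA replicate 1) and 0.038 (Sham replicate 1) log2 CPM per doubling of length. Prkaa2 itself was counted over 2652 bases, near the median of all genes. The part of the slope in the spread of Prkaa2 was not tested, and these 2 checks of length were chosen after the values of Prkaa2 were seen. The summed cell type markers followed Prkaa2 less closely, with r from -0.46 (skeletal muscle) to 0.27 (endothelial).

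**Figure D2:**
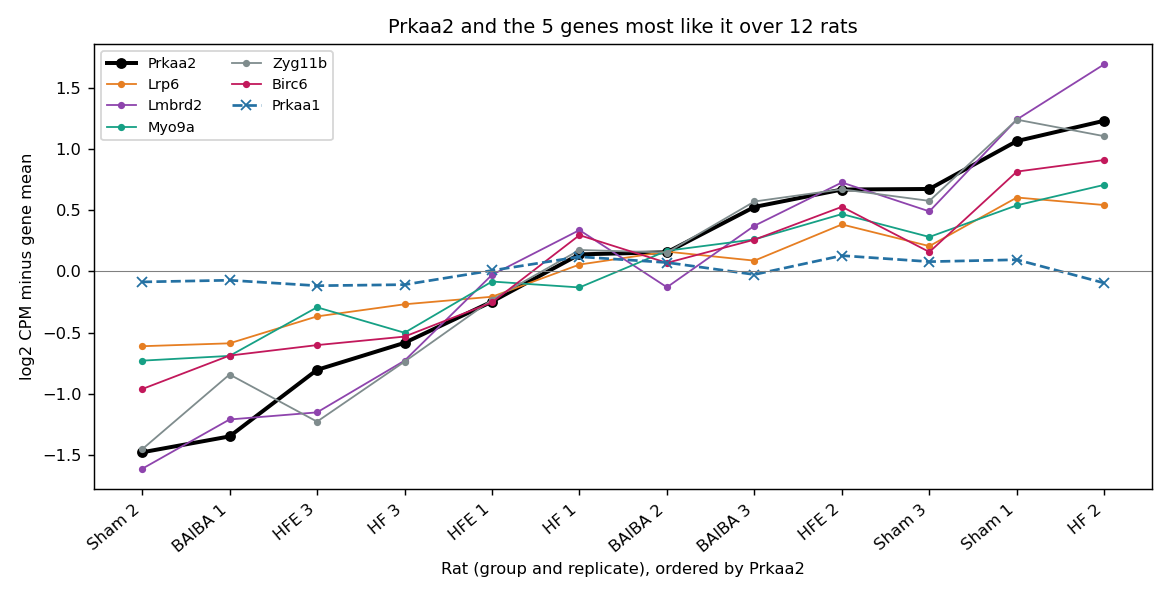
log2 CPM minus each gene's mean (vertical axis) in the 12 rats ordered by Prkaa2 (horizontal axis), for Prkaa2, the 5 genes most like it and Prkaa1 (dashed). The rats of all 4 groups are mixed along the order, and the 5 genes, chosen for their r, climb with Prkaa2. Prkaa1 moves over a much smaller range and has a Pearson r of 0.55 with Prkaa2.

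Prkaa1 and Prkag2 had looser companions. The genes most like Prkaa1 were Cep57 (r = 0.86), Zbtb25 (0.84), Senp8 (0.84), Uxt (0.83) and RGD1561277 (0.83), over the same 12 rats. Those most like Prkag2 were Rfx1 (0.93), AABR07064753.1 (0.89), Slc16a13 (0.89), Cdhr5 (0.88) and Dok4 (0.88). With group means removed, r was 0.84 to 0.89 for the genes most like Prkaa1. For those most like Prkag2 it was 0.85, 0.87, 0.70, 0.67 and 0.68 in the order given.

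Of the beta subunits, Prkab1 (beta1) showed the clearest pattern over the infarcted groups. It was 33.8, 40.8 and 35.3 FPKM in Sham rats, 32.5, 25.4 and 28.2 in HF rats, 25.8, 29.1 and 33.8 in HFE rats and 34.4, 38.2 and 36.3 FPKM in BAIBA rats. Every HF rat was below every Sham rat and every BAIBA rat, while HFE rats overlapped HF rats. The log2 difference was -0.34 (SE 0.10, edgeR unadjusted p = 0.0125, adjusted p = 0.805) for HF against Sham and 0.32 (SE 0.12, unadjusted p = 0.0292, adjusted p = 0.851) for BAIBA against HF. Both comparisons use the same 3 HF rats, so the pair of values is not independent. For HFE against HF the difference was 0.083 (SE 0.14), and lay between -0.035 without HFE replicate 3 and 0.20 without HFE replicate 1.

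Prkab2 (beta2), best known from skeletal and heart muscle, was 9.49, 9.63 and 8.69 FPKM in Sham rats, 7.38, 9.95 and 8.62 in HF rats, 6.67, 7.35 and 11.5 in HFE rats and 7.90, 6.43 and 8.62 FPKM in BAIBA rats. In FPKM the BAIBA rats lay narrowly below all Sham rats and overlapped HF and HFE rats. In CPM after TMM scaling they overlapped Sham rats too, with 42.7 in BAIBA replicate 3 and 42.3 in Sham replicate 3. Its log2 difference was -0.079 (SE 0.14) for HF against Sham and -0.21 (SE 0.16) for BAIBA against HF. The latter was -0.34 without HF replicate 1, -0.094 without HF replicate 2 and -0.13 without BAIBA replicate 2.

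Of the gamma subunits, Prkag2 (gamma2), whose mutations cause a heart muscle disease with glycogen storage, had the lowest adjusted p of the 9 genes. Its level was 10.7, 10.3 and 9.69 FPKM in Sham rats, 11.4, 11.8 and 10.7 in HF rats, 13.4, 11.6 and 13.3 in HFE rats and 10.4, 9.57 and 7.16 FPKM in BAIBA rats. BAIBA rats were below all HF and all HFE rats. The log2 difference for BAIBA against HFE was -0.55 (SE 0.14, edgeR unadjusted p = 0.00439, adjusted p = 0.237). It lay between -0.64 and -0.41 with 1 rat left out, and was -0.57 with the replicate number as a block (adjusted p = 0.186). BAIBA against HF gave -0.35 (SE 0.15, unadjusted p = 0.0436, adjusted p = 0.851), and -0.21 without BAIBA replicate 3. HFE against HF gave 0.21 (SE 0.088, unadjusted p = 0.0498, adjusted p = 0.648). These pairwise comparisons share rats, so their values are not independent. In Prkag2, HFE and HF rats overlapped in FPKM and did not in CPM after TMM scaling, as also held for HF and Sham rats. Over all 4 groups the edgeR F test gave an unadjusted p of 0.00459 and an adjusted p of 0.333, while DESeq2 called Prkag2 at an adjusted p of 0.0361, among 333 of 24775 genes called. With edgeR the call was not reached.

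Prkag3 (gamma3), known mainly from fast skeletal muscle, was 3.26, 3.09 and 3.63 FPKM in Sham rats, 3.19, 2.88 and 3.14 in HF rats, 4.33, 3.62 and 3.54 in HFE rats and 3.44, 2.94 and 2.52 FPKM in BAIBA rats. HFE rats were above all HF and all BAIBA rats. The log2 difference was 0.35 (SE 0.14, edgeR unadjusted p = 0.0350, adjusted p = 0.638) for HFE against HF and -0.42 (SE 0.16, unadjusted p = 0.0291, adjusted p = 0.447) for BAIBA against HFE. Both comparisons use the same HFE rats, so these values are not independent. Counts of Prkag3 were low, from 114 to 176 per rat. Skeletal muscle markers (6 of 8 found, none at 0 in all rats) summed to 6.22 to 15.1 FPKM in HF, 7.53 to 8.75 FPKM in HFE and 6.88 to 12.2 FPKM in BAIBA rats. Over the 12 rats the log2 CPM of Prkag2 and Prkag3 had a Pearson r of 0.74, the highest among the 36 pairs of the 9 genes, given as a description since the pairs share libraries.

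Prkag1 (gamma1), the widespread form, was 10.4, 11.01 and 10.9 FPKM in Sham rats, 11.6, 10.1 and 11.5 in HF rats, 9.36, 9.62 and 10.4 in HFE rats and 9.42, 8.88 and 10.01 FPKM in BAIBA rats, within the limit on its row given above. BAIBA rats were below all HF and all Sham rats. The log2 difference for BAIBA against HF was -0.26 (SE 0.11, edgeR unadjusted p = 0.0471, adjusted p = 0.851).

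Of the upstream kinases, Stk11, a tumor suppressor that also activates kinases related to AMPK, had close group means (27.4 to 28.7 FPKM). It was 28.5, 27.8 and 29.8 FPKM in Sham rats, 26.7, 28.1 and 27.4 in HF rats, 29.2, 25.4 and 28.1 in HFE rats and 32.6, 22.9 and 26.7 FPKM in BAIBA rats. The lowest and the highest rat were both in the BAIBA group. Its log2 differences lay between -0.070 (BAIBA against HFE, SE 0.11) and 0.038 (HFE against HF, SE 0.086).

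Camkk2, the calcium-dependent activator, was scarce, at 49 to 88 counts per rat. It was 1.77, 2.14 and 1.82 FPKM in Sham rats, 2.23, 1.73 and 2.09 in HF rats, 2.02, 1.58 and 2.50 in HFE rats and 1.97, 1.42 and 2.02 FPKM in BAIBA rats. All groups overlapped, and at this depth the SE of its log2 differences was 0.20 to 0.25, so that a modest difference was not detectable.

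**Figure D3:**
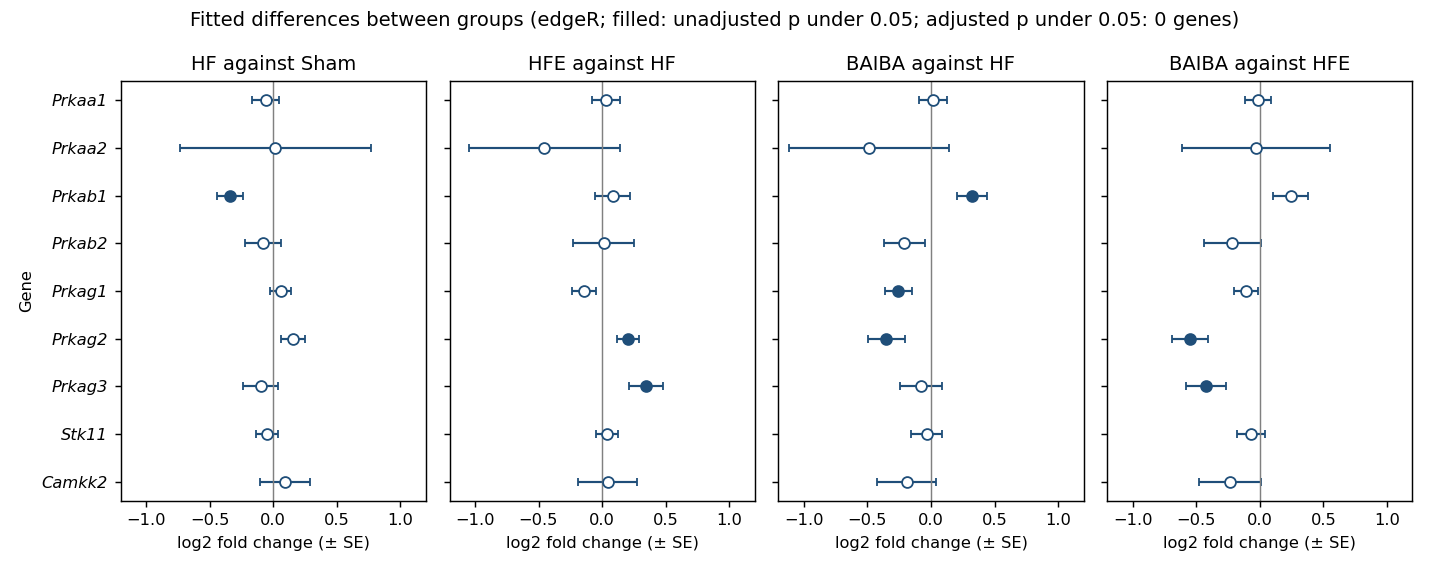
edgeR log2 fold change (horizontal axes, bars ± SE) of the 9 genes in the 4 pairwise comparisons; filled points have an unadjusted p under 0.05 and 0 genes have an adjusted p under 0.05. Prkag2 lies at -0.55 and Prkag3 at -0.42 in BAIBA against HFE, and Prkaa2 has the widest bars.

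Each comparison was read against all genes. A gene was called at an adjusted p under 0.05 over all genes tested and, in tests of a difference, an absolute log2 difference over 1. HF against Sham sets ligated beside unligated rats, within the limit on site given above. Here edgeR called 0 of the 9 genes against a background of 0% of 14957 genes. At an unadjusted p under 0.05 there was 1 (Prkab1; background 6%), and 2 did not overlap between groups in CPM (Prkab1 and Prkag2; background 11.8%). HFE against HF sets trained beside sedentary infarcted rats, within the same limit. For it 0 were called (background 0%) and 2 had an unadjusted p under 0.05 (Prkag2 and Prkag3, background 7.62%). The same 2 did not overlap (background 14.4%). For BAIBA against HF, 0 were called (background 0%), 3 had an unadjusted p under 0.05 (Prkab1, Prkag1 and Prkag2; background 5.55%) and the same 3 did not overlap (background 11.4%). For BAIBA against HFE, 0 were called (background 0.0808%, 12 genes, or 32 genes with the replicate number as a block), 2 had an unadjusted p under 0.05 (Prkag2 and Prkag3; background 9.57%) and the same 2 did not overlap (background 15.5%). DESeq2 and limma called 0 of the 9 in all 4 pairs.

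Over all 4 groups edgeR called 0 of the 9 genes (background 0%) and 2 had an unadjusted p under 0.05 (Prkag2 and Prkag3; background 9.71%). For the 3 infarcted groups together against Sham, 0 were called by edgeR (background 0%) or DESeq2, and 0 had an unadjusted p under 0.05 (background 6.35%), with Prkab1 nearest at -0.20 (SE 0.10, edgeR unadjusted p = 0.0796, adjusted p = 0.816), and at -0.12 without Sham replicate 2. The median log2 difference of the 9 genes was -0.047 for HF against Sham, 0.038 for HFE against HF, -0.19 for BAIBA against HF and -0.11 for BAIBA against HFE, with medians over all genes between -0.0098 and 0.0088.

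The makeup of each subunit class was expressed as the share of its summed FPKM in each rat. Prkaa2 held 75.8, 37.6 and 70.7% of the alpha sum in Sham rats, 61.8, 80.0 and 53.4% in HF rats, 57.2, 69.9 and 49.7% in HFE rats and 39.6, 62.8 and 70.1% in BAIBA rats. The share exceeded that of Prkaa1 in 9 of 12 rats and followed the spread of Prkaa2, and all groups overlapped (exact permutation test over 4 groups, p = 0.927). Infarcted rats averaged 60.5% and Sham rats 61.4% (two-sided exact permutation p = 0.918).

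Prkab2 held the smaller part of the beta sum in all rats. It made up 21.9, 19.1 and 19.8% in Sham rats, 18.5, 28.1 and 23.4% in HF rats, 20.6, 20.2 and 25.4% in HFE rats and 18.7, 14.4 and 19.2% in BAIBA rats. BAIBA rats were below all HFE rats, by a mean of 4.62 percentage points (17.4% ± 2.64 against 22.0% ± 2.91, SD, n = 3; exact permutation p = 0.1, the smallest that 3 rats against 3 allow), or 2.94 points without HFE replicate 3. Over 4 groups the exact permutation p was 0.197, and 0.0383 without HF replicate 1.

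Within the gamma sum, the Prkag2 share was 43.9, 42.3 and 40.1% in Sham rats, 43.6, 47.6 and 42.2% in HF rats, 49.4, 46.7 and 48.9% in HFE rats and 44.6, 44.8 and 36.4% in BAIBA rats. HFE rats were above all Sham and all BAIBA rats and overlapped HF rats. The Prkag1 share was correspondingly low in HFE rats, at 34.6, 38.7 and 38.1%, against 40.6 to 50.8% in the other 9 rats. The Prkag3 share was 11.6 to 12.4% in HF rats, below all other rats, which held 12.6 to 16.02%. In percentage points these differences were smaller from counts without gene length. There the Prkag1 row, with 2573 to 4212 counts per rat, fills most of the sum, and Prkag3 has 114 to 176. The Prkag3 share is itself smaller from counts, so points from counts and from FPKM are not on a like scale. HF minus Sham was -1.61 percentage points from FPKM and -0.408 from counts, HFE minus HF was 2.47 and 1.16, and BAIBA minus HF was 1.73 and 0.470. The exact permutation p over 4 groups was 0.0736 for Prkag1, 0.105 for Prkag2 and 0.120 for Prkag3, and the lowest adjusted p over the 10 tests of shares across 4 groups or between infarcted and Sham rats was 0.400. Without BAIBA replicate 3 the p was 0.00760 for the Prkag1 share and 0.0426 for the Prkag2 share, without BAIBA replicate 1 it was 0.0410 for Prkag1, and without HFE replicate 3 it was 0.0492 for Prkag3 (exact permutation tests). Shares from counts without gene length gave an exact permutation p of 0.0476 for Prkag1.

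Because the Prkag1 row is uncertain, Prkag2 was also set against Prkag3 alone, an alternative chosen after the data were seen. It held 76.7, 77.0 and 72.8% of their sum in Sham rats, 78.2, 80.4 and 77.3% in HF rats, 75.5, 76.2 and 79.0% in HFE rats and 75.1, 76.5 and 74.0% in BAIBA rats. HF rats were above all Sham and all BAIBA rats, and HFE rats overlapped each of the other groups (exact permutation test over 4 groups, p = 0.163). The high Prkag2 share of HFE rats in the whole gamma sum was therefore not seen against Prkag3. The sum of both genes was 15.2 to 17.7 FPKM in HFE rats, above the 9.69 to 14.7 FPKM of all other rats.

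**Figure D4:**
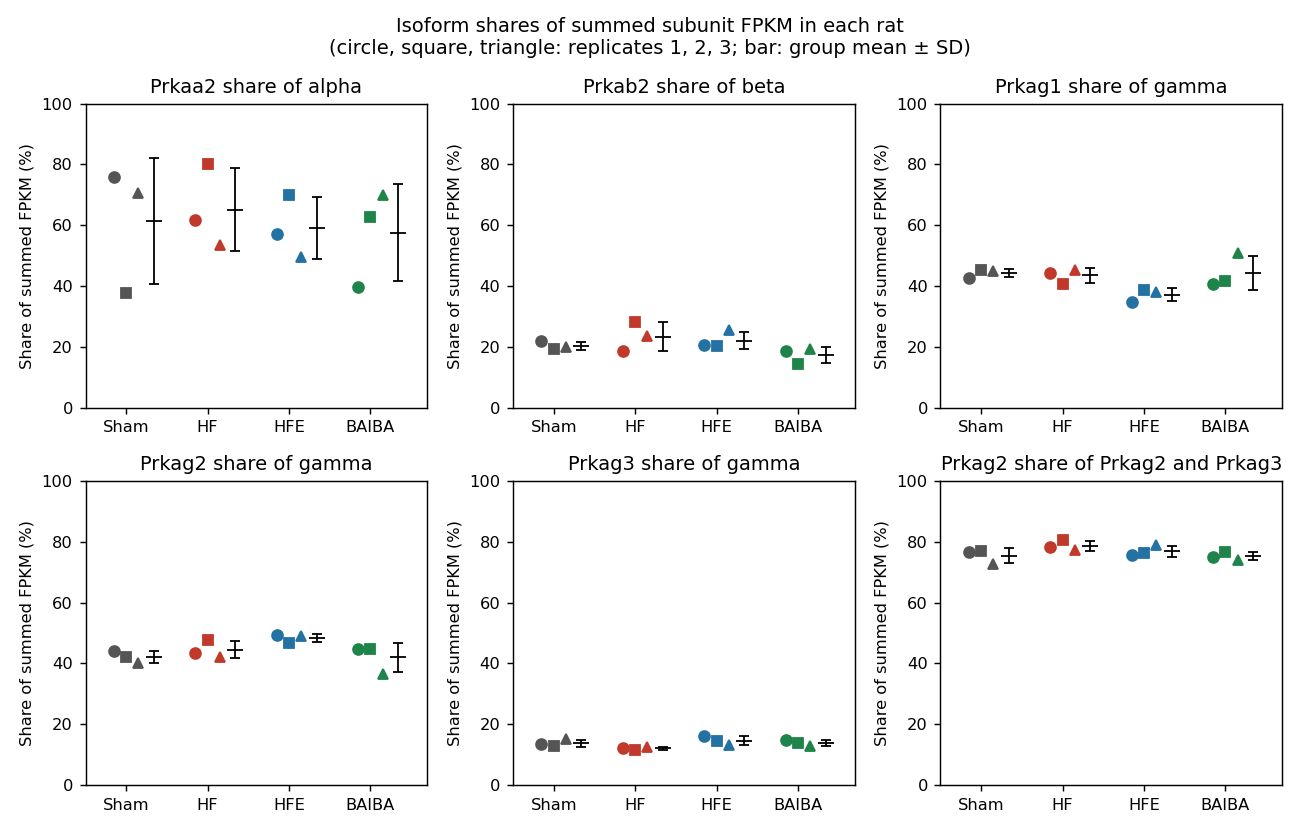
Share of each isoform in the summed FPKM of its subunit class (vertical axes, percent) in each rat, by group, with the mean ± SD (n = 3) as a bar; the last panel leaves Prkag1 out. The Prkaa2 share ranges from 37.6 to 80.0% with all groups overlapping, and the Prkag1 share of HFE rats lies below that of the other 9 rats.

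The genes around AMPK were read from 4 lists. Of 6 partners of Stk11 and other upstream kinases, 12 AMPK-related kinases that Stk11 activates, 15 genes of AMPK target proteins and 7 of 8 regulators of AMPK, edgeR called 0 in any comparison, against the same background shares as above. For HF against Sham, 0 of 6, 4 of 12, 1 of 15 and 0 of 7 had an unadjusted p under 0.05 (background 6%). The counts in the same order were 0, 1, 2 and 1 for HFE against HF (background 7.62%). They were 0, 1, 1 and 1 for BAIBA against HF (background 5.55%), and 0, 0, 2 and 1 for BAIBA against HFE (background 9.57%). Over 4 groups the counts were 0, 2, 2 and 1 (background 9.71%). For infarcted against Sham they were 0, 0, 0 and 1 (background 6.35%).

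The gene with the lowest p of each list in HF against Sham was Map3k7 (-0.89, SE 0.47), which encodes the kinase TAK1, Nuak1 (-0.39, SE 0.087), Mff (-3.50, SE 1.25) and Flcn (0.23, SE 0.11), as log2 differences. Mff, which encodes the receptor that recruits Drp1 to divide mitochondria, was 2.94, 30.4 and 1.69 FPKM in Sham rats, 0.89, 1.34 and 0.80 in HF rats, 3.26, 1.04 and 1.08 in HFE rats and 1.51, 4.35 and 33.3 FPKM in BAIBA rats. Only 2 rats, Sham replicate 2 and BAIBA replicate 3, were above 5 FPKM, and Mff was not fitted without them. For BAIBA against HF it was again lowest in p among the targets (3.68, SE 1.25, edgeR adjusted p = 0.851), with Cab39l (0.16, SE 0.11), Brsk1 (0.82, SE 0.32) and Flcn (-0.30, SE 0.13) leading the other lists.

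For HFE against HF the leading genes were Map3k7 (0.78, SE 0.38), Sik3 (-0.45, SE 0.16), Foxo3 (-0.81, SE 0.24) and Sesn1 (-0.62, SE 0.22). Foxo3, which encodes a transcription factor that AMPK phosphorylates, was 5.15, 5.59 and 6.69 FPKM in HF rats and 2.32, 3.33 and 4.02 FPKM in HFE rats, which did not overlap. Foxo3 was named for its low p, which favors groups that do not overlap, and 14.4% of all genes did not overlap here on scaled counts. Sesn1, one of the sestrins that act on AMPK in stress, was 23.6, 24.7 and 38.9 FPKM in HF, 17.6, 18.0 and 20.1 in HFE and 22.9, 29.2 and 34.1 FPKM in BAIBA rats. HFE rats were below all rats of both groups, where 14.4% (HF) and 15.5% (BAIBA) of all genes did not overlap with HFE on scaled counts. For BAIBA against HFE, Sesn1 differed by 0.58 (SE 0.17, edgeR adjusted p = 0.301), Tbc1d4, which holds back glucose transporter traffic, by -0.34 (SE 0.12), Cab39 by 0.16 (SE 0.081) and Nuak2 by -0.46 (SE 0.26).

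For infarcted rats against Sham, Sesn2 differed by 0.37 (SE 0.12, edgeR unadjusted p = 0.00906, adjusted p = 0.740). It was 2.88, 2.85 and 3.27 FPKM in Sham rats, 3.60, 3.93 and 2.67 in HF rats, 4.44, 3.46 and 3.42 in HFE rats and 4.78, 4.12 and 4.09 FPKM in BAIBA rats. HFE and BAIBA rats were above all Sham rats, while HF rats overlapped them. Sesn2 was named for its low p, and the share of all genes without overlap was not computed for HFE or BAIBA against Sham. The other lists were led by Camkk1 (-0.31, SE 0.24), Nuak1 (-0.35, SE 0.21) and Mff (-1.998, SE 0.95). Over 4 groups the lowest p of each list belonged to Cab39 (edgeR unadjusted p = 0.0998), Sik3 (0.0222), Eef2k (0.0419) and Sesn2 (0.0164), and their adjusted p lay between 0.426 and 0.573.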

How the data were processed

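Left ventricular mRNA libraries (oligo(dT) selection, random priming, paired-end) of 12 rats were sequenced. The authors trimmed the reads and aligned them with HISAT2, and the submitters' processing notes also name StringTie, featureCounts, Subread and DESeq2. Those notes name a mouse build although the gene identifiers are of rat, so the build is unsettled and no coordinates are given. Strand handling in counting is not given in the sources used here, so reads of overlapping antisense genes cannot be told apart. The authors deposited counts per gene, not normalized, and FPKM values per gene, which were used as deposited. Between 14812541 and 19732588 counts per rat limit the precision of scarce genes.

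Groups were taken from the labels. Counts were tested with edgeR 4.0.16 (R 4.3.3; TMM scaling, filterByExpr, robust quasi-likelihood test) on all genes, pairwise and over 12 rats, with Benjamini-Hochberg adjustment. DESeq2 1.42.0, limma 3.58.1 on log2(FPKM + 1) or log2(FPKM + 0.1) (mean FPKM of at least 0.1), other scalings, no filter, a filter of 10 counts per library, 1 fit over the 12 rats, a replicate block and leaving out each rat were alternatives. Shares were taken from FPKM and tested by exact permutation in Python 3.11.15, with the logit, counts and leaving out each rat as alternatives. Non-overlap was judged on TMM-scaled CPM in counts of genes and on FPKM elsewhere. log2 CPM used a prior count of 2. On simulated counts with 200 genes changed 4-fold, 87% were recovered for HF against Sham (14957 genes) and 83% for HFE against HF (14938). Recovery was 81.5% for BAIBA against HF (15039) and 88% for BAIBA against HFE (14844). False calls numbered 10, 7, 14 and 7 in the same order. Smaller changes were not simulated, so this recovery does not show whether differences as small as those of the AMPK genes could be detected. The largest pairwise log2 difference among the subunit and upstream kinase genes was -0.55 (Prkag2, BAIBA against HFE), in size below the limit of 1.

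Text names the 9 genes and, of 4 pathway lists, the called genes and the gene with the lowest p of each list in each comparison. Further genes are those most correlated with Prkaa1, Prkaa2 and Prkag2. The genes and lists were chosen with earlier results of these data known. The labels name 2 sequencing instruments without tying libraries to them. They give no more than a replicate number, and the p-values set differences between groups against the spread between these rats. Same-numbered BAIBA and HFE rats deviated together (r from 0.12 to 0.22 over 3 pairs), and pairs of the other comparisons did not meet the limit of 0.1 in each pair (r from -0.079 to 0.12); the labels do not say what a number stands for. Replicate libraries differed beyond sampling noise (chi-square per degree of freedom 11.8 to 33.7). Fnip1 had no row under its symbol and is not analysed here.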

Additional observations from a re-analysis of the deposited data

How the results depend on the processing

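The 9 genes stayed uncalled in all pairwise alternatives that kept the limit on the adjusted p (other scalings and filters, DESeq2, limma, the fit of all rats, the replicate block, no fold limit, and leaving out each rat). With an unadjusted p and no fold limit, the counts were 1 for HF against Sham, 2 for HFE against HF, 3 for BAIBA against HF and 2 for BAIBA against HFE. DESeq2 called 1 gene, Prkag2, over 4 groups; the cause was not tested. Of 684 fold changes of the 9 genes under alternatives, 47 changed sign, 34 of them on leaving out a rat, and outside those the main value was never above 0.046 in size. For HFE against HF, library-size scaling gave -0.0063 for Prkaa1 and -0.023 for Prkab2, the replicate block gave -0.019 for Prkab2, and limma gave -0.00083 and -0.00038 for Prkaa1, -0.046 and -0.054 for Prkab2, and -0.00029 and -0.0051 for Camkk2 (pseudocounts 1 and 0.1). For BAIBA against HFE, library-size scaling gave 0.040 for Prkaa1 and 0.014 for Prkaa2, and limma 0.036 and 0.042 for Prkaa1. The replicate block changed no other direction or call of the 9 genes. With 1 rat left out (an arm of 2 rats), HF against Sham ranged from -0.62 to 0.50 for Prkaa2, -0.20 to 0.056 for Prkab2, -0.077 to 0.0089 for Stk11 and -0.0023 to 0.11 for Prkag1. HFE against HF ranged from -0.035 to 0.11 for Prkaa1, -0.96 to 0.18 for Prkaa2, -0.035 to 0.20 for Prkab1, -0.28 to 0.18 for Prkab2, -0.014 to 0.075 for Stk11 and -0.14 to 0.18 for Camkk2. BAIBA against HF ranged from -0.026 to 0.097 for Prkaa1, -0.87 to 0.15 for Prkaa2, -0.12 to 0.047 for Stk11 and -0.14 to 0.021 for Prkag3. BAIBA against HFE ranged from -0.078 to 0.049 for Prkaa1, -0.41 to 0.47 for Prkaa2, -0.39 to 0.075 for Prkab2 and -0.17 to 0.011 for Stk11. Infarcted against Sham ranged from -0.74 to 0.18 for Prkaa2, -0.059 to 0.063 for Prkag3 and -0.014 to 0.13 for Camkk2.

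For shares, the exact permutation p over 4 groups ranged, with 1 rat left out, from 0.0383 to 0.440 for Prkab2, 0.00760 to 0.297 for Prkag1, 0.0426 to 0.254 for Prkag2 and 0.0492 to 0.290 for Prkag3, and counts without gene length gave 0.0476 for Prkag1. The mean difference of infarcted and Sham rats ranged from -12.7 to 6.34 percentage points for the Prkaa2 share, -0.225 to 1.496 for Prkab2, 1.83 to 3.90 for Prkag2 and -0.720 to 0.455 for Prkag3, which was 0.136 from counts. For Prkag2 the 3.90 was without BAIBA replicate 3 (exact permutation p = 0.0485, unadjusted), against 2.83 with all rats (exact permutation p = 0.286, unadjusted). Camkk2 had 49 to 88 counts per rat and Prkag3 114 to 176, the fewest of the 9 genes.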
